A study of Homo sapiens with 16 samples.

Results

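A549 is a human lung adenocarcinoma cell line, and its binding sites for HIF-1α and HIF-2α, the oxygen-regulated subunits of the hypoxia-inducible factors, are described here from 4 peak lists made by chromatin immunoprecipitation and sequencing (ChIP-seq). All cells had been kept in 0.5% oxygen for 16 h, and chromatin was precipitated with an antiserum against HIF-1α (replicates 2 and 3) or one against HIF-2α (replicates 2 and 3), so that isoform and antiserum cannot be told apart. No normoxic library was used, and the same treatment was given to HCT116 (colorectal), PC3 (prostate) and T47D (breast) carcinoma cells, which serve for comparison. The sources do not say whether replicates came from separate cultures, so p-values measure the spread between libraries, which may be technical. A site of an isoform was a merged region in which peaks of both replicates overlapped by at least 1 bp. There were 252 HIF-1α sites and 772 HIF-2α sites, 2 of which fell into a single shared site. They merged into 887 A549 sites, of 3699 such sites in the 4 cell lines. Of the 887, 116 were HIF-1α-only, 136 were shared and 635 were HIF-2α-only. With HIF-1α replicate 2 left out, so that replicate 3 alone defined HIF-1α sites, there were 393 HIF-1α-only and 236 shared sites. Without HIF-1α replicate 3 there were 232 HIF-1α-only sites, and without HIF-2α replicate 3 there were 1236 HIF-2α-only sites. The 4 lists held 3449 of the 23398 peaks of the 16 libraries.

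HIF-1 and HIF-2 are each a pair of one α subunit and the common β subunit (HIF-1β, ARNT). In oxygenated cells the α subunits are hydroxylated by prolyl hydroxylases, bound by the VHL protein and degraded. In hypoxia they accumulate and the dimers bind a short core motif in the genes they control, HIF-1 being best known for genes of glycolysis and HIF-2 for genes such as EPO. The peak lists measure where DNA was recovered, not whether a gene responded. The name "-only" says that a peak of the other isoform was not called in both replicates, not that binding was absent. A peak in 1 of the 2 libraries of the other isoform was found at 16 of the 116 HIF-1α-only sites and at 113 of the 635 HIF-2α-only sites, 100 of which had it in HIF-1α replicate 3.

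The HIF core motif was searched as ACGTG or GCGTG on both strands, and the AP-1 motif, bound by dimers of FOS and JUN proteins, as TGACTCA or TGAGTCA, which are reverse complements of each other. TGACTCA also forms the core of the sites of MAF and NRF2 proteins, so that a match names no factor. The sequences are GRCh37, plus strand, with matches to either motif in capitals. A palindromic CACGTG counts as 2 overlapping matches. The first 3 sets show the highest ranking sites of each class that had no peak of the other isoform or, if shared, all 4 peaks. Each is given as a window around the core motif nearest to the middle of the site, shortened to 30 bp where it would reach into an annotated untranslated exon. They show the sequence within the highest ranking sites of each class, and no value ties a window to its site's score. The windows of NARF and SUSD1 are centered 145 and -301 bp from the site's center, and these sites had no core match in their central 200 bp.

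HIF-1α-only sites, named by the nearest gene:
FAM174B, chr15:93352282-93352431: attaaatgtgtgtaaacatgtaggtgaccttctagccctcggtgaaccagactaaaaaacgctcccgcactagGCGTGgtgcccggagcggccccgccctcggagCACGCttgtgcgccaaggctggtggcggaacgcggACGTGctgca
NARF, chr17:80416374-80416403: cccccggcgccgtACGTGgagtgagcctgc
VGLL4, chr3:11684028-11684177: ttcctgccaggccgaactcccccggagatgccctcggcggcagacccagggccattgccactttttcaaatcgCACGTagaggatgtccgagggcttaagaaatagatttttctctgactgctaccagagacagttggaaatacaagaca

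The windows near FAM174B and NARF lay in sites with 8 core matches each and the VGLL4 window in a site with 3, and no AP-1 match was found in these 3 sites. Shared sites:
ALDOA, chr16:30076342-30076491: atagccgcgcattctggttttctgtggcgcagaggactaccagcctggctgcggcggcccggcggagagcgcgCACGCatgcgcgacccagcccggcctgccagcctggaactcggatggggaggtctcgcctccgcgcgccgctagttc
GPI, chr19:34850157-34850306: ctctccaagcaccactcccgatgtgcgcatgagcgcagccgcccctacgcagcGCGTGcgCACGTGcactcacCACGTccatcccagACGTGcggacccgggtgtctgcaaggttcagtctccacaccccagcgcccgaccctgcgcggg
SNAPC1, chr14:62217941-62218090: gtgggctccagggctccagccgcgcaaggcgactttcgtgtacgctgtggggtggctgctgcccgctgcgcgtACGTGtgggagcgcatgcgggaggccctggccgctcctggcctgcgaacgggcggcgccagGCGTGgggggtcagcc

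GPI, which encodes the second enzyme of glycolysis, had 5 core matches within this 150 bp window and 20 in the whole site. HIF-2α-only sites:
MEGF6, chr1:3426929-3427078: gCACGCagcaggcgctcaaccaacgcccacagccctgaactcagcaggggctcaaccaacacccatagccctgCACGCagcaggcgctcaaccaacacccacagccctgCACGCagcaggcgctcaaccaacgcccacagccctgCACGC
SUSD1, chr9:114803781-114803930: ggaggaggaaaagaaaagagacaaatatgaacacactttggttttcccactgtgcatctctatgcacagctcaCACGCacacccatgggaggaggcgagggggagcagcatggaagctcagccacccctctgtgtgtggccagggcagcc
MAFK, chr7:1560432-1560581: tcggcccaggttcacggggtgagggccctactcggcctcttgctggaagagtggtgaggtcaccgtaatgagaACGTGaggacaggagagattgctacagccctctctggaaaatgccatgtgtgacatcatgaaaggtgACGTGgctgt

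The MEGF6 window held 4 core matches of the GCGTG form in a tandemly repeated unit. The window near MAFK, which encodes a small MAF protein, held 2 matches of the ACGTG form. Among HIF-2α-only sites, 97 of 635 (15.3%) had both motifs in the central 200 bp, against 11 of 136 shared sites (8.09%) and 3 of 116 HIF-1α-only sites (2.59%). The highest ranking 3 of those 97 that had no HIF-1α peak, chosen after their values were seen, show both motifs together. They were near APOH (scores 821.57 and 242.87 in HIF-2α replicates 2 and 3), ITGB5 (458.8 and 340.7) and ZNF469 (465.33 and 266.13):
APOH, chr17:64271794-64271993: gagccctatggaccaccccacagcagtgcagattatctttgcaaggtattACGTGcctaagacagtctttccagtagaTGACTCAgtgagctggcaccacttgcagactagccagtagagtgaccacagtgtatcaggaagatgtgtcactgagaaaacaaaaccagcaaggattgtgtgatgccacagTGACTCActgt
ITGB5, chr3:124597731-124597930: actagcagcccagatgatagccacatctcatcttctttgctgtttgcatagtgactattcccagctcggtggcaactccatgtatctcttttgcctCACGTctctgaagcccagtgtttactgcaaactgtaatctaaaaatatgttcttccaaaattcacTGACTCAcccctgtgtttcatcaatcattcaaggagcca
ZNF469, chr16:88276331-88276530: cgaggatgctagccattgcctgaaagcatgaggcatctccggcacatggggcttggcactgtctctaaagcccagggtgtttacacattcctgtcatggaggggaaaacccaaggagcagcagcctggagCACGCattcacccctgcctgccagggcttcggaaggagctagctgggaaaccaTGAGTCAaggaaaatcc

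The first comparison asked how the lists of the isoforms differed. HIF-1α replicates 2 and 3 held 382 and 629 peaks, and HIF-2α replicates 2 and 3 held 1382 and 1056. Both HIF-2α lists were longer than both HIF-1α lists, 2.46-fold in the geometric mean. The distance between a peak's center and the closest start of any protein-coding transcript had a median of 1528.5 and 752 bp in the HIF-1α lists, and 24301 and 18260 bp in the HIF-2α lists. These distances did not overlap between isoforms and differed 19.6-fold. Peaks within 1 kb of a start site made up 49.1% ± 2.89 of the HIF-1α lists and 17.0% ± 4.49 of the HIF-2α lists (mean ± SD, n = 2 each). The core motif was in the central 200 bp of 67.6% and 70.6% of HIF-1α peaks and of 57.2% and 61.0% of HIF-2α peaks, a difference of 10.0 percentage points that was 2.79 when the best 382 peaks of each list were used. The AP-1 motif was in 7.63% and 8.11% of HIF-1α peak centers and in 24.0% and 16.8% of HIF-2α ones. Median peak width was 855.5 and 1216 bp for HIF-1α and 968 and 1037 bp for HIF-2α, so that the widths overlapped.

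In the two-sided exact permutation test, each of these measures except width gave p = 0.333, the smallest that 4 libraries allow, and width gave p = 1. Adjusted over the 6 measures the values were 0.4 and, for width, 1. No A549 difference could therefore pass a threshold of 0.05, and the results below are given as descriptions with counting intervals (95%, Wilson for shares, order statistics for medians), which cover counting error only. Read depth is not in the files, and a longer list can come with more reads.

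**Figure D1:**
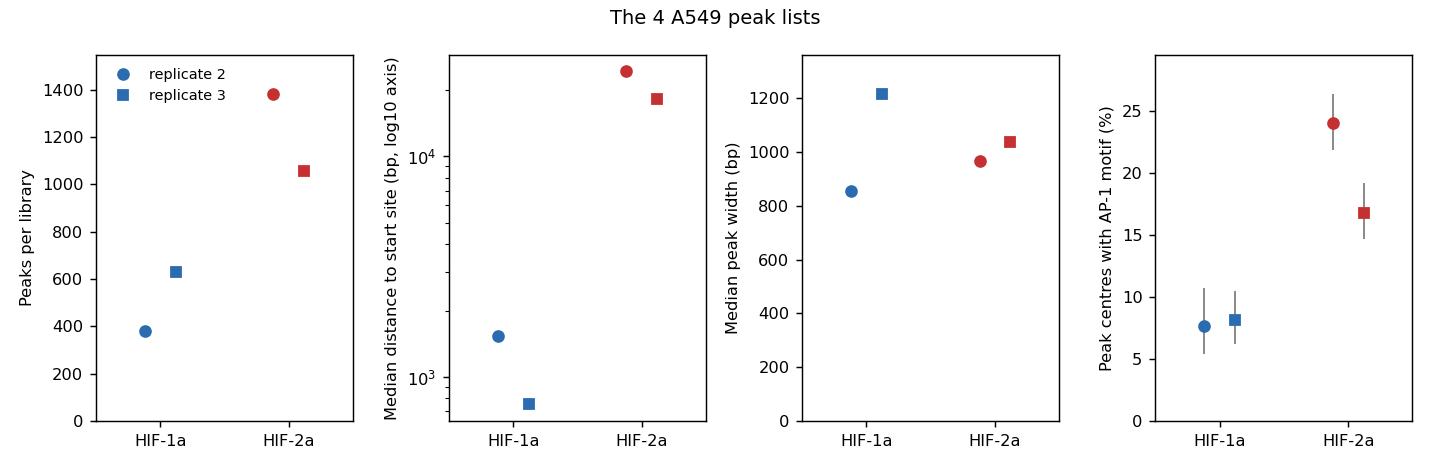
Each point is 1 A549 library, with the number of peaks, median distance to a start site on a log10 axis, median peak width and share of peak centers with the AP-1 motif (bars, 95% Wilson intervals) on the vertical axes. The 2 HIF-2α libraries lie above the 2 HIF-1α libraries in every panel except that of width, where they lie between them.

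A549 was the only one of the 4 cell lines in which the HIF-2α lists were the longer ones. The log10 difference in peak number, HIF-1α minus HIF-2α, was -0.39 for A549 but 0.62 for HCT116, 0.58 for PC3 and 0.24 for T47D, with no overlap between the isoforms within any line. The A549 difference minus the mean of the others was -0.87 (exact permutation over all relabelings within lines, two-sided p = 0.00154, adjusted over 3 comparisons 0.00463). The relabelings assume no isoform difference in any line, so a small p, here the smallest they can give, can also come from the other 3 lines alone. For distance and for the AP-1 share all 4 lines differed in the same direction, and the same exact permutation test gave p = 0.611 and p = 0.444. The AP-1 share was lower in HIF-1α than in HIF-2α lists by 12.5 percentage points in A549, and the same difference was -6.02 for HCT116, -9.99 for PC3 and -3.50 for T47D.

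The next question was where the 3 classes of site lay. HIF-1α-only sites had their center a median of 232 bp (147 to 465) from a start site, shared sites 3135 bp (929 to 9267) and HIF-2α-only sites 23190 bp (20024 to 25764), and the 3 intervals do not overlap. The median of shared sites was 7167.5 bp without HIF-1α replicate 2 and 5304 bp without HIF-1α replicate 3. Promoter sites, with a center within 1 kb of a start site, were 77 of 116 HIF-1α-only (66.4%), 58 of 136 shared (42.6%) and 79 of 635 HIF-2α-only sites (12.4%). Of the HIF-2α-only sites, 211 lay in introns and 338 between genes. Intergenic sites were 24.1%, 41.2% and 53.2% of the 3 classes, and intronic sites 6.90%, 15.4% and 33.2%. Among sites outside promoters the median distances were closer, at 21051, 17054.5 and 28701 bp.

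**Figure D2:**
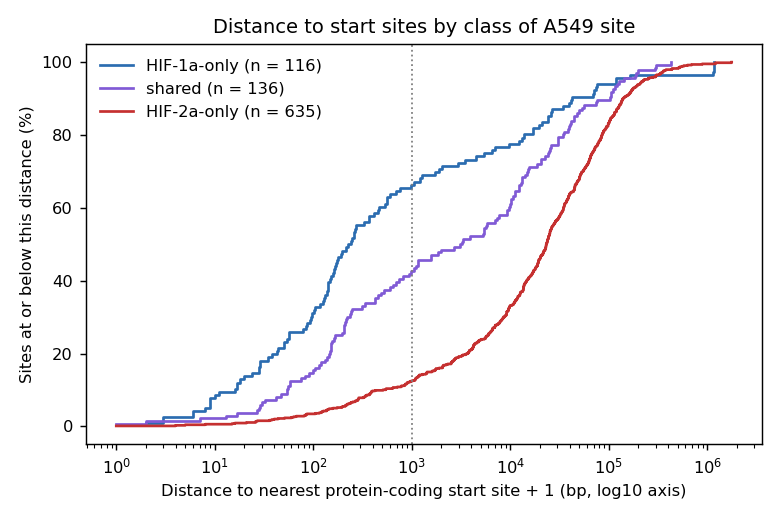
Cumulative share of sites (vertical axis, %) against distance to the nearest protein-coding start site plus 1 bp (horizontal log10 axis), 1 line per class; the dotted line marks 1 kb. The line of HIF-1α-only sites reaches 66.4% at 1 kb, that of shared sites 42.6% and that of HIF-2α-only sites 12.4%.

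When the best 382 peaks of each library were used (a setting added once the data had been seen), the classes held 138, 80 and 212 sites. Promoters then made up 63.0%, 36.2% and 7.08% of them, so the classes kept this order with lists of equal length. Without HIF-1α replicate 3 the median distance of HIF-1α-only sites was 685 bp and 52.2% were promoter sites, still the shortest distance and the highest share of the 3 classes. Sites farther than 100 kb from any protein-coding start site were 6.03%, 10.3% and 16.9% of the classes. Of the 7 such HIF-1α-only sites, 4 were the cluster on chromosome 21 assigned to TPTE and described below. HIF-2α-only sites lay within 50 kb of another of their class in 25.2% of cases, against 9.56% of shared and 5.17% of HIF-1α-only sites, which are also fewer. By chromosome, 7 of the HIF-1α-only sites (6.03%), 2 shared sites (1.47%) and 3 of the HIF-2α-only sites (0.472%) were on X. The density of HIF-2α-only sites ran from 0 on Y and 1.93 per 100 Mb on X to 47.4 on chromosome 19.

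The classes also differed in base composition and motifs. The median number of CpG dinucleotides in the central 200 bp was 18 (15 to 21) in HIF-1α-only, 13 (8 to 16) in shared and 4 (4 to 4) in HIF-2α-only sites. At promoters alone it was 22, 20 and 15. The core motif was in the central 200 bp of 72.4%, 74.3% and 63.1% of sites, against 21.7% to 26.1% of windows of the same length 5000 bp to either side and 43.4% of 19540 windows at protein-coding start sites. At least 2 matches were in 42.2%, 41.2% and 22.5%. Taken over the whole site, the core motif was in 114 of 116, 136 of 136 and 592 of 635.

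The AP-1 motif was in 4 of 116 HIF-1α-only (3.45%, 1.35 to 8.53), 14 of 136 shared (10.3%, 6.23 to 16.5) and 139 of 635 HIF-2α-only sites (21.9%, 18.9 to 25.3). In the flanking windows it was in 1.29%, 2.57% and 2.52%, and in 2.11% of start-site windows. Outside promoters the shares were 2 of 39 (5.13%), 12 of 78 (15.4%) and 127 of 556 (22.8%), and at promoters 2 of 77 (2.60%), 2 of 58 (3.45%) and 12 of 79 (15.2%). The HIF-2α-only class had the highest share both at promoters and elsewhere. The intervals of the promoter shares overlap (8.91 to 24.7 for HIF-2α-only, 0.951 to 11.7 for shared and 0.715 to 8.98 for HIF-1α-only sites). Outside promoters the interval of HIF-2α-only sites (19.5 to 26.5) also overlaps that of shared sites (9.03 to 24.99). It lies above that of HIF-1α-only sites (1.42 to 16.9). HIF-2α-only sites with the AP-1 motif ranked like those without, with median mean score percentiles of 60.7 (n = 139) and 61.1 (n = 496).

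**Figure D3:**
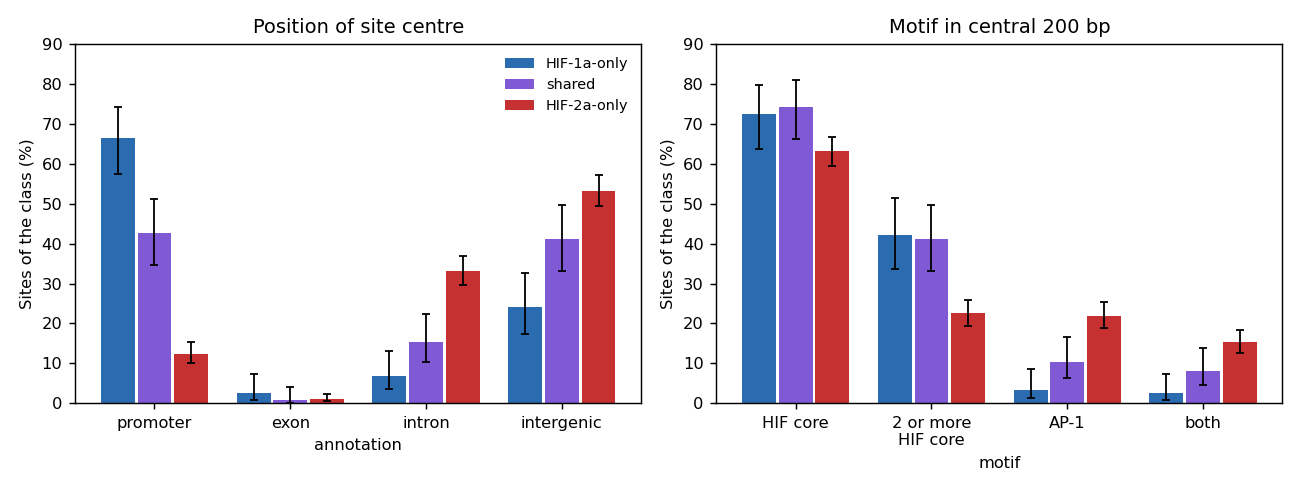
Share of sites (vertical axes, %) by annotation of the center (left) and by motif in the central 200 bp (right), for HIF-1α-only, shared and HIF-2α-only sites, with 95% Wilson intervals as bars. Promoter shares fall from 66.4% to 12.4% across the classes while AP-1 shares go from 3.45% to 21.9%.

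Scores are the peak caller's own and their scale is not stated, so each peak was placed by its percentile within its own list (100 for the highest score). Shared sites ranked highest, with a median mean percentile of 77.8 (72.5 to 82.9), against 63.7 (59.5 to 68.4) for HIF-1α-only and 61.0 (58.1 to 63.2) for HIF-2α-only sites. Shared sites were also the widest, with a median of 1494.5 bp (1434 to 1566), against 1319 bp and 1134 bp. A shared site had to be called in 4 lists and a single-isoform site in 2. Weak sites can therefore drop out of the shared class by this rule, so its higher rank is not a separate result. A merged site of 4 peaks can also be wider than one of 2 by construction. Scores of the replicates had a Spearman correlation of 0.784 over the 252 HIF-1α sites and 0.763 over 771 HIF-2α sites, a description across sites that share their libraries. Where 1 HIF-1α replicate did have a peak at a HIF-2α-only site, its rank was low, with a median percentile of 42.0 in replicate 3 (n = 100) and 21.99 in replicate 2 (n = 13).

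The 8 highest ranking HIF-1α-only sites without any HIF-2α peak were nearest to FAM174B, NARF, VGLL4, SH2D4B, COX20, SLCO1B3-SLCO1B7, RLF and UQCC4. The site at FAM174B (chr15:93351260-93353292) spans its start and scored 1125.98 and 1876 in the HIF-1α replicates, percentiles of 99.7 and 99.5. The site at NARF (chr17:80415399-80417089), centered 9 bp from a start site, scored 1071.26 and 2268.59. Both were therefore among the strongest peaks of either HIF-1α list while HIF-2α had none there. COX20 (chr1:244997846-244999340), which encodes an assembly factor of cytochrome c oxidase, scored 236.07 and 511.39. UQCC4 (chr16:1470140-1471468), which encodes an assembly factor of respiratory complex III, scored 255.21 and 308.26. A HIF-1α site was present in all 3 other cell lines at FAM174B, NARF, VGLL4, COX20, RLF and UQCC4 and in 2 of them at SH2D4B and SLCO1B3-SLCO1B7, and none of the 8 had a HIF-2α site in those lines.

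The 8 highest ranking HIF-2α-only sites without any HIF-1α peak were nearest to MEGF6, SUSD1, PRAG1, MAFK, PLEKHG7, CCR7, TGFBI and NR2F1. TGFBI (chr5:135393505-135394798), a secreted matrix protein induced by TGF-β, had the only one of these sites that spans a start site, with scores of 841.71 and 364.56 in HIF-2α replicates 2 and 3. The site near MAFK (chr7:1559789-1561220) lay 9833 bp upstream and scored 898.74 and 468.41. The site near CCR7 (chr17:38707143-38709227), a chemokine receptor gene, lay 9080 bp downstream of its start and scored 902.96 and 448.65. The sites at MAFK, PLEKHG7 and CCR7 had no HIF site of either isoform in the other lines. The other sites were 13693 bp (MEGF6) to 504394 bp (NR2F1, a nuclear receptor gene) from the start, so that the nearest gene is only a label there. Nearest genes are protein-coding only. A HIF-2α-only site assigned to FRMD8 (chr11:65188344-65190995), with scores of 395.67 and 334.27 and a HIF-1α peak of 54.32 in replicate 3, was centered 575 bp from a start of the noncoding gene NEAT1.

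Among shared sites the highest ranks were at ALDOA, GPI, SNAPC1, SLC2A3, BHLHE40, GAPDH, KDM3A and ENO1, of which ALDOA, GPI, GAPDH and ENO1 encode glycolytic enzymes. ALDOA (chr16:30074839-30077905) scored 602.42 and 1270.21 with HIF-1α and 976.47 and 953.15 with HIF-2α, percentiles of 97.9, 98.9, 98.8 and 98.9. BHLHE40 (chr3:5019453-5022382), a transcriptional repressor of the circadian system, scored 424.28 and 630.91 with HIF-1α and 2828.26 and 2460.5 with HIF-2α, the top score of both HIF-2α lists. GPI (chr19:34848212-34852249) scored 1726.85 and 2356.94 with HIF-1α and 706.47 and 625.36 with HIF-2α. It held the top score of HIF-1α replicate 2, and ENO1 that of replicate 3.

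Shared sites were not ranked alike by the isoforms. Over the 136 sites the Spearman correlation was 0.861 between the HIF-1α replicates and 0.884 between the HIF-2α replicates, and between 0.151 and 0.424 for the 4 pairs across isoforms (a description, since sites share libraries). Both HIF-1α percentiles exceeded both HIF-2α percentiles at 36 sites (26.5%), the reverse held at 65 (47.8%), and they overlapped at 35. A percentile depends on the length of its list. When each library was ranked among the 136 shared sites alone (also added later), the counts were 52 and 55.

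The division followed position under both rankings. Promoter sites were 26 of the 36 (72.2%) that ranked higher with HIF-1α and 11 of the 65 (16.9%) that ranked higher with HIF-2α, and with ranks among shared sites 36 of 52 (69.2%) and 7 of 55 (12.7%). Ranked among shared sites, the 58 promoter sites had a median percentile of 66.2 and 65.8 in the HIF-1α replicates and 32.7 and 39.0 in the HIF-2α replicates. The other 78 had 43.8 and 38.6 with HIF-1α and 63.6 and 62.9 with HIF-2α. The AP-1 motif was in 0 of the 36 and in 10 of the 65 (15.4%), and in 4 of the 35 with overlapping percentiles (11.4%). With ranks among shared sites it was in 2 of the 52 (3.85%) and 8 of the 55 (14.5%). Both replicates of an isoform thus gave the same order of promoter and distal sites, and the isoforms gave opposite ones.

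**Figure D4:**
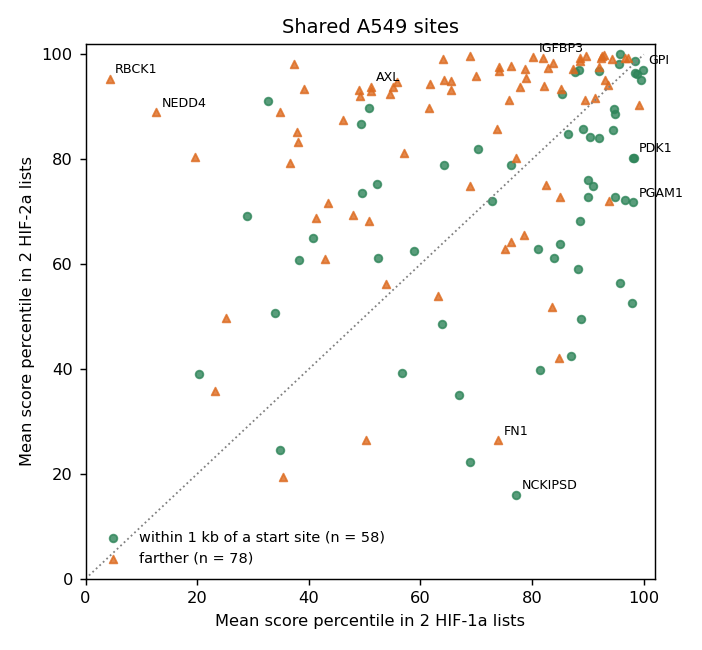
Each point is 1 of the 136 shared sites, with its mean score percentile in the 2 HIF-1α lists (horizontal) and in the 2 HIF-2α lists (vertical); circles are the 58 sites within 1 kb of a start site, triangles the 78 others, and the dotted line marks equal percentiles. Most triangles lie above the line, and RBCK1 lies farthest from it at a difference of -91.0.

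The largest excess of HIF-2α rank was at RBCK1, NEDD4, NTMT1, PITRM1 and PAX8. The site 5433 bp upstream of RBCK1 (chr20:382028-383389), which encodes a subunit of the linear ubiquitin ligase, scored 50.05 and 52.41 with HIF-1α, near the lowest score kept, and 650.67 and 450.54 with HIF-2α. NEDD4 (chr15:56199669-56200772), a ubiquitin ligase gene, scored 51.05 and 56.36 with HIF-1α and 516.09 and 223.74 with HIF-2α. At PAX8 (chr2:113997383-113999345), a lineage transcription factor of kidney and thyroid, the scores were 57.28 and 66.79 against 495.43 and 285.1. The RBCK1 site was close to being classed HIF-2α-only, with HIF-1α percentiles of 1.05 and 7.63. They were higher at PAX8 (28.8 and 36.7) and at NTMT1 (9.16 and 65.5).

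The largest excess of HIF-1α rank was at NCKIPSD, FN1, PRICKLE3, ZNF292 and CLK3, all but FN1 within 1 kb of a start site. NCKIPSD (chr3:48722596-48723762) scored 122.83 and 145.08 with HIF-1α and 52.75 and 61.89 with HIF-2α. ZNF292 (chr6:87864673-87866247) scored 546.14 and 1157.46 with HIF-1α and 90.8 and 101.01 with HIF-2α. At CLK3 (chr15:74907278-74908667), a kinase gene of splicing control, HIF-2α scores were 52.81 and 174.84 and HIF-1α scores 139.68 and 479.45, so the HIF-2α replicates were themselves far apart.

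Genes were next taken as the nearest protein-coding gene of each site. Of 19794 genes, 112 (0.566%) were nearest to a HIF-1α-only site, 128 (0.647%) to a shared site, 521 (2.63%) to a HIF-2α-only site and 720 (3.64%) to any. These percentages are the background for the lists below. Genes nearest to many distal sites tend to have long empty stretches around them, and so the share of the genome for which a list's genes are nearest is given where a list is described in detail. Shared and HIF-2α-only sites had 38 nearest genes in common, 29.7% of the genes of shared and 7.29% of those of HIF-2α-only sites, and the closest pair of such sites was a median of 18386.5 bp apart. HIF-1α-only genes had 1 in common with shared and 3 with HIF-2α-only sites. SLC2A1, which encodes the glucose transporter GLUT1, was the only gene of all 3 classes, with a weak HIF-1α-only site 555 bp into the gene (scores 50.44 and 62.09), a shared site 3930 bp upstream (107.96 and 164.61 with HIF-1α, 191.8 and 234.57 with HIF-2α) and a HIF-2α-only site in an intron (204.58 and 170).

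Of 19 glycolytic enzyme genes, 9 (47.4%) were nearest to a shared site, 2 to a HIF-1α-only site, 4 to a HIF-2α-only site and 13 to any. They were nearest for 0.0519% of the genome and for 7.35% of shared sites. All but 1 of the shared sites of this list, the second site at PKM, lay within 1 kb of a start site. PGK1 (chrX:77358808-77360294) scored 314.57 and 636.77 with HIF-1α and 316.73 and 322.73 with HIF-2α. PGAM1 (chr10:99185220-99186708) scored 618.6 and 1060.72 against 118.31 and 225.56. TPI1 and HK2, the gene of an inducible hexokinase, were HIF-1α-only, HK2 with 81.99 and 116.69. TPI1 scored 96.41 and 140.68 and had a HIF-2α peak of 63.48 in replicate 3. PFKP, a phosphofructokinase gene, had 3 HIF-2α-only sites, the best of them (chr10:3149119-3150240) with 141.89 and 125.56, and PFKL had 1. The PFKL site scored 111.77 and 60.11 with HIF-2α and also had a HIF-1α peak of 118.93 in replicate 3.

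Of 13 genes of glucose uptake and its control, 3 were nearest to a HIF-1α-only, 5 to a shared and 4 to a HIF-2α-only site. PDK1 (chr2:173420151-173421825), the kinase that shuts pyruvate out of the citric acid cycle, scored 545.83 and 1263.63 with HIF-1α and 192.82 and 231.37 with HIF-2α. SLC2A3, which encodes the transporter GLUT3, had a shared site 34682 bp upstream (445.19 and 981.38 with HIF-1α, 1528.15 and 1174.51 with HIF-2α). PFKFB3, which makes the activator of phosphofructokinase, showed both arrangements. Its promoter site (chr10:6242364-6245436) scored 352.08 and 588.17 with HIF-1α and 120.47 and 235.03 with HIF-2α, and a site 75206 bp downstream (chr10:6340746-6341923) scored 164.29 and 132.54 with HIF-1α and 655.24 and 741.17 with HIF-2α. PFKFB4 was HIF-1α-only, with 191.93 and 402.33 and a single HIF-2α peak of 55.43 in replicate 2.

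Smaller metabolic lists were mixed. Glycogen metabolism had 1, 2 and 2 of 12 genes in the 3 classes in the same order, with shared sites at PPP1R3C and GBE1. Lactate export and pH control had 0, 2 and 1 of 8, with SLC16A3, the lactate exporter MCT4, shared (1010.09 and 1685.47 with HIF-1α, 402.82 and 312.99 with HIF-2α) and CA12 HIF-2α-only. Mitophagy and mitochondrial genes had 2, 3 and 1 of 12: BNIP3 and LONP1 were HIF-1α-only, and BNIP3L had a shared promoter site with 413.33 and 771.99 for HIF-1α and 89.85 and 121.25 for HIF-2α. Lipid metabolism had 1, 1 and 1 of 19, with HIF-2α-only at SCD, a fatty acid desaturase gene.

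Jumonji histone demethylases, oxygen-dependent enzymes that remove methyl groups from histones, had 4 of 16 genes nearest to a HIF-1α-only site, 2 to a shared and 0 to a HIF-2α-only site. The HIF-1α-only genes were KDM4C, KDM5C, KDM2A and KDM5B. KDM4C had a pair of sites, chr9:6715691-6717046 with 168.29 and 259.56 and chr9:6757013-6758558 with 98.21 and 136.56. KDM5C had a HIF-2α peak of 58.65 in replicate 3. The shared genes were KDM3A and KDM4B, and KDM4B scored 246.37 and 403.04 with HIF-1α and 187.64 and 407.15 with HIF-2α. These 16 genes were nearest for 0.0819% of the genome and 4.31% of HIF-1α-only sites.

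**Figure D5:**
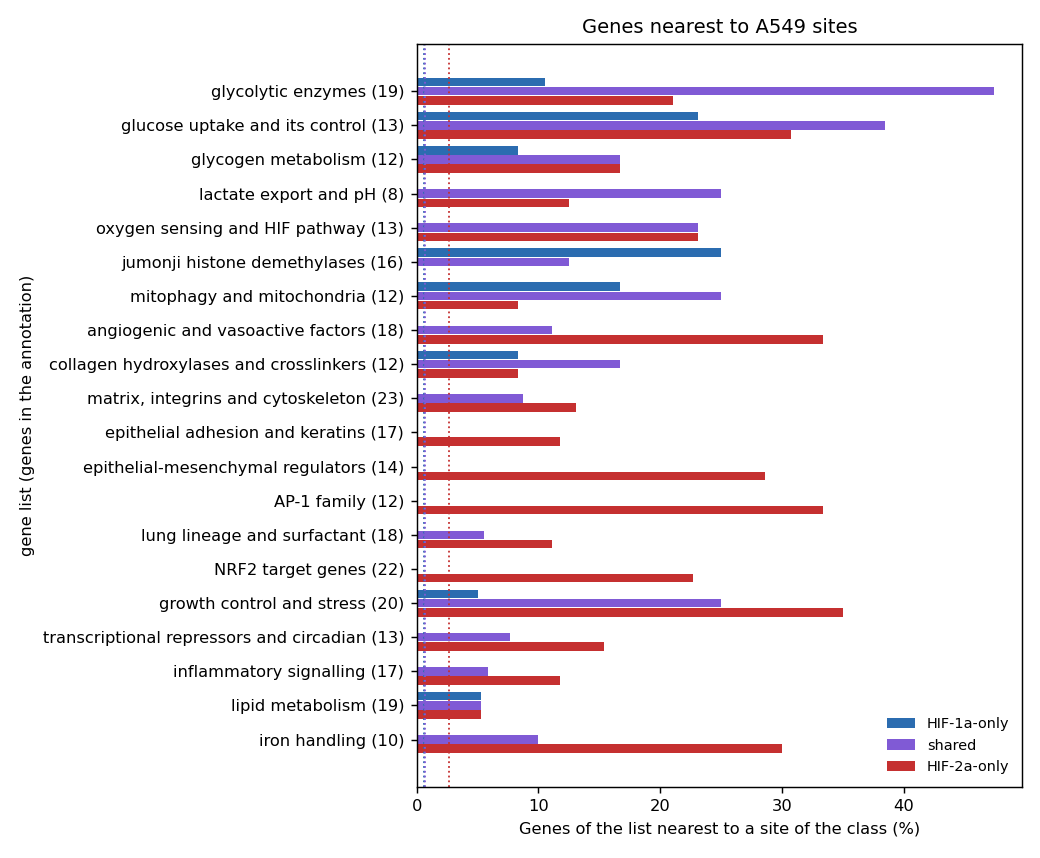
Share of each list's genes (horizontal axis, %; number of genes in parentheses) nearest to at least 1 site of each class, as bars, with dotted lines at the shares of all protein-coding genes (0.566%, 0.647% and 2.63%). Glycolytic enzymes have the longest shared bar at 47.4%, and AP-1 family, NRF2 target, epithelial-mesenchymal and epithelial adhesion genes have a HIF-2α-only bar alone.

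Oxygen sensing and HIF pathway genes had 0, 3 and 3 of 13. EGLN3, a HIF prolyl hydroxylase gene, had 2 shared and 2 HIF-2α-only sites, of which that 12285 bp into the gene (chr14:34407034-34408459) scored 298.66 and 431.86 with HIF-1α and 576.46 and 474.27 with HIF-2α. EGLN1, the other prolyl hydroxylase with a site, had a shared promoter site (148.31 and 244.58, then 115.11 and 116.54). EPAS1, which encodes HIF-2α itself, had a HIF-2α-only site 63522 bp upstream with 187.77 and 228.91.

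Angiogenic and vasoactive factors had 0, 2 and 6 of 18 genes (33.3% HIF-2α-only). ADM, which encodes the vasodilator adrenomedullin, had a shared site (chr11:10328612-10330546) with 163.01 and 501.57 for HIF-1α and 1261.79 and 836.72 for HIF-2α. EDN1 (endothelin), ANGPTL4, PDGFB and VEGFC had HIF-2α-only sites alone, with ANGPTL4 at 136.86 and 105.42 and VEGFC at 137.52 and 60.51. The list was nearest for 0.114% of the genome, 1.47% of shared sites and 1.10% of HIF-2α-only sites.

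Another 4 lists had sites of the HIF-2α-only class and of no other. At background shares of 0.566% and 0.647%, lists of 12 to 22 genes would seldom hold a gene of the other classes, and nothing is read from their absence. When any of the 3 nearest genes counted, 1 NRF2 target gene had a HIF-1α-only site, and the other 3 lists still had none of another class. The AP-1 family had 4 of 12 genes (33.3%): MAFK, JUNB, FOSL2 and JUN. JUNB (chr19:12906563-12907630) scored 133.73 and 89.18, and FOSL2 (chr2:28615035-28616428), at its start site and with an AP-1 match of its own, 120.85 and 90.02, with a HIF-1α peak of 80.89 in replicate 3. The JUN site lay 145726 bp away. The 12 genes were nearest for 0.0330% of the genome and for 0.787% of HIF-2α-only sites.

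NRF2 target genes, which serve the response to oxidants, had 5 of 22 (22.7%): GCLC, AKR1C3, SLC7A11, TXNRD1 and HMOX1. GCLC (chr6:53480269-53481238), the rate-limiting enzyme of glutathione synthesis, scored 127.44 and 96.29 in the HIF-2α replicates. HMOX1 (chr22:35767634-35768594), heme oxygenase, scored 105.77 and 50.98 and held 3 AP-1 matches in its central window. AKR1C3 scored 396.61 and 62.09 and TXNRD1 198.67 and 51.65, so replicate 2 was far higher for both. These genes were nearest for 0.0825% of the genome and 0.787% of HIF-2α-only sites.

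Epithelial-mesenchymal regulators had 4 of 14 (28.6%): TGFBI, SMAD7, SMAD3 and TGFB2. SMAD3 (chr15:67401403-67402720) scored 274.54 and 112.79 with HIF-2α and 51.15 in HIF-1α replicate 2, and SMAD7 (chr18:46524147-46525194), its inhibitor, 243.83 and 131.23. The list was nearest for 0.172% of the genome and 0.630% of HIF-2α-only sites. Epithelial adhesion and keratin genes had 2 of 17 (11.8%), at KRT8 and PKP3, with mean percentiles of 31.5 and 21.6.

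Iron handling had 0, 1 and 3 of 10, with TFRC, the transferrin receptor gene, shared and CP, TF and FTH1 HIF-2α-only. CP (chr3:148942553-148943680), ceruloplasmin, scored 503.07 and 237.37 with HIF-2α and 64.29 in HIF-1α replicate 3. TF (chr3:133461044-133462233), transferrin, scored 202.87 and 329.6. Growth control and stress had 1, 5 and 7 of 20. DDIT4, which encodes an inhibitor of the growth regulator mTORC1, had a shared site 12967 bp upstream (298.36 and 621.12 with HIF-1α, 1391.75 and 1366.84 with HIF-2α). NDRG1 had a shared site 73280 bp away with 351.69 and 339.61, then 1471.56 and 1480.22. As deposited, the HIF-2α scores were the higher ones at both sites. At the promoter of DDIT4 the scores were 178.46 and 390.86 with HIF-1α and 106 and 196.16 with HIF-2α. At STC2 the scores were 174.51 and 507.48 with HIF-1α and 358.86 and 406.89 with HIF-2α. HIF-2α scores as deposited were again the higher ones at the remaining shared sites of the list, near IGFBP3 and AXL. Scores of different lists have no known common scale, so an order of deposited scores is not one of ranks. IGFBP3, an IGF-binding protein, had a shared site 56534 bp upstream (138.54 and 170.17 with HIF-1α, 2232.47 and 1201.25 with HIF-2α). AXL, a receptor tyrosine kinase gene, had a shared site (85.12 and 69.17, then 633.84 and 364.36). EGFR, a growth factor receptor gene, had 3 HIF-2α-only sites, the best (chr7:55034683-55035875) 51431 bp upstream with 432.21 and 213.04.

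As to the other lists, matrix, integrin and cytoskeleton genes had 0, 2 and 3 of 23, with ITGB1 in both of these classes. Collagen hydroxylases and crosslinkers had 1, 2 and 1 of 12, with P4HA2 HIF-1α-only (166.83 and 375.08), P4HA1 and PLOD2 shared, and LOXL2 HIF-2α-only at 3 sites. Lung lineage and surfactant genes had 0, 1 and 2 of 18. Transcriptional repressors and circadian genes had 0, 1 and 2 of 13, and inflammatory signaling genes 0, 1 and 2 of 17. The study's own list of 48 common target genes, of which 47 were in the annotation, was chosen on samples that include these and is not independent evidence. By the nearest gene alone it had 44 genes with a site, of which 26 had shared sites alone. Another 6 had HIF-1α-only sites alone (DENND1A, HK2, KDM4C, LONP1, PFKFB4 and SAP30) and 3 HIF-2α-only sites alone (ANGPTL4, KCTD11 and SCD). The study counted any of the 3 closest genes of a site and reported both isoforms at all 48 genes. With any of the 3 nearest genes, 46 had a site here. The classes of single genes are therefore not set against the study's result.

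Several sites fell near a single gene mainly in the HIF-2α-only class, where 20 genes had 3 or more sites and 521 genes had any. PDE4D, a cAMP phosphodiesterase gene, had 6 over 855.5 kb, with HIF-2α percentile means from 43.8 to 87.9, and 4 of them with the core motif in the central window. AOPEP, an aminopeptidase gene, had 5, all in introns, and TCIM had 5. LIF, which encodes a cytokine of the interleukin-6 family, had 4 within 58.6 kb. The strongest of them (chr22:30591549-30593226) lay 50340 bp downstream, with 1487.42 and 576.82 for HIF-2α and 76.62 in HIF-1α replicate 3. SIK1, a salt-inducible kinase gene, also had 4.

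BCL3, GSE1 and ELF3 had 3 each. The best BCL3 site (chr19:45244225-45246464) scored 933.84 and 718.79 with HIF-2α and 68.66 in HIF-1α replicate 3. ELF3, an epithelial transcription factor gene, had 0 of 3 sites with the core motif in the central window, and its best (chr1:201986555-201988853) scored 777.93 and 417.79 with HIF-2α and 128.61 in HIF-1α replicate 3. So several of the strongest HIF-2α-only sites had a lower ranking peak in that one HIF-1α library. Its percentile was 45.6 at LIF, 39.1 at BCL3 and 73.6 at ELF3. The ELF3 value was also the median of HIF-1α-only sites in that library. In the HIF-1α-only class a single gene had more than 2 sites: 4 sites within 14.5 kb (chr21:9825554-9840019) were assigned to TPTE, whose start is 1153092 bp away, and 1 of the 4 had a HIF-1α site in another line.

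Finally, the A549 sites were looked up in the other 3 cell lines. A HIF-1α site of another line overlapped 93.1% of HIF-1α-only sites (87.0 to 96.5), 79.4% of shared sites and 19.5% of HIF-2α-only sites. A HIF-2α site of another line overlapped 22.4%, 62.5% and 16.5%. No peak of either isoform in any of the 12 libraries of the other lines overlapped 6 of the 116 HIF-1α-only (5.17%), 11 of the 136 shared (8.09%) and 309 of the 635 HIF-2α-only sites (48.7%). The other lines held 350, 154 and 180 HIF-2α sites in HCT116, PC3 and T47D, against 2502, 1063 and 439 HIF-1α sites, and a line with few sites can overlap few. The 309 sites without a peak elsewhere had a median distance of 24408 bp, the core motif in 64.4% and the AP-1 motif in 20.4% (16.3 to 25.2). The 326 others had 21865.5 bp, 62.0% and 23.3% (19.1 to 28.2), so the motif shares overlapped within counting error. Promoter sites were 7.12% of the 309 and 17.5% of the 326.

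Whole lists were also compared. The list most similar to each A549 list was that of its own replicate, with a Jaccard index (merged regions with a peak of both lists over all) of 0.333 for HIF-1α and 0.465 for HIF-2α. The index is limited by the ratio of the lists' lengths, so its order across cell lines is not given.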

How the data were processed

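Peak lists of the 4 A549 and 12 other libraries were used as the authors deposited them, 1 list per library, with coordinates and a MACS score on GRCh37. The scale of the score and the version of MACS are not given in the sources used here, nor are read totals, so depth is unknown. Per the submitters' processing notes, Trim Galore 0.3.3, BWA 0.7.5a-r405, SAMtools 0.1.19, Picard 2.0.1 and bedtools 2.17.0 were used. The study's further filters (HIF-1β peaks and another peak caller) were not applied here.

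Distances ran between the site center and the closest start of any protein-coding transcript in GENCODE release 44 lifted to GRCh37. Motifs were counted in the central 200 bp. Of the peaks of HIF-1α replicate 2, 2 lay off chromosomes 1 to 22, X and Y and have no distance or motif count. Sequences of chromosome 8 are not printed. Isoforms were compared over libraries with exact two-sided permutation tests, adjusted by Benjamini-Hochberg. The scripts (Python 3.11.15, numpy 2.4.6, scipy 1.17.1, pysam 0.24.0, matplotlib 3.10.9) were tested on simulated data.

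The sites, gene lists and tests were chosen with earlier results of these data known. Named are the 8 highest ranking sites of each class, for single-isoform classes those with no peak of the other isoform, the 5 shared sites with the largest rank difference each way, up to 8 genes with 3 or more HIF-2α-only sites, and for each gene list the members nearest to a site, with values for up to 4. Values of PGK1, PGAM1, TPI1, HK2, PFKP, PFKL, PFKFB3, SLC2A1, VEGFC, HMOX1, AXL, EGFR, P4HA2 and FRMD8 lie outside this rule or beyond the 4, as do TPTE and the sequences with both motifs, and were chosen after they were seen. The replicate numbers of the isoforms do not establish a pairing (see the correlation of their deviations in the closing section). Some members of the gene lists are not reported here by name. Alternatives covered the overlap needed, a score minimum, lists of equal length, start-site and motif windows, other nearest-gene rules and each library left out.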

Additional observations from a re-analysis of the deposited data

Results flagged for a closer look

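The isoform difference in the number of peaks had the opposite sign in A549 and in the other cell lines. The log10 difference, HIF-1α minus HIF-2α, in A549 minus its mean in HCT116, PC3 and T47D was -0.87 (exact permutation test, p = 0.00154, adjusted over 3 comparisons 0.00463). The relabelings assume no isoform difference in any line, so this p, the smallest they can give, can come from the other 3 lines alone and does not test A549 by itself. Both A549 HIF-2α lists were longer than both HIF-1α lists, and in each of the other 3 lines both HIF-1α lists were longer. The number of peaks depends on read depth and on the antiserum, neither of which is measured in the files. The study's methods name no antiserum particular to A549. It also reported that A549 had a larger share of HIF-2-bound sites and relatively more HIF-2α protein. The part of each of these in the difference was not tested.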

How the results depend on the processing

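Of 307 alternative values of 35 results, 258 stayed in direction and within the limits set for a change, 46 moved and 3 changed sign, all 3 of the width difference (0.0077 on the log10 scale), which was -0.047 with lists of equal length and ran from -0.069 to 0.084 with each library left out. The causes were not tested.

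HIF-1α-only, shared and HIF-2α-only sites numbered 436, 321 and 1337 with peaks of either replicate and 50, 76 and 396 with a score minimum at the median. With lists of equal length they numbered 138, 80 and 212. Nearest genes numbered 416, 296 and 1018, then 47, 71 and 336, and with equal lengths 134, 75 and 192. With any of the 3 nearest genes they numbered 336, 378 and 1463. The median distance of shared sites was 5304 bp with either replicate, 1353.5 bp with the score minimum, 5349.5 bp with equal lengths and 6788 bp with 1 start site per gene. That of HIF-2α-only sites was 27628 bp with either replicate and 42198 bp with 1 start site per gene. HIF-1α-only sites of either replicate were 56.2% promoter and 14.1% intronic and 62.0% held the core motif. HIF-2α-only sites held it in 51.5% with either replicate, 66.9% with the score minimum and 67.0% with equal lengths, where 7.08% were promoter sites.

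With each library left out, HIF-1α-only sites numbered 107 to 393, shared sites 143 to 236 and HIF-2α-only sites 535 to 1236, with 103 to 384, 135 to 216 and 453 to 925 genes. HIF-1α-only sites had a distance of 193 to 685 bp, 52.2% to 68.2% promoter, 5.61% to 16.1% intronic and 60.9% to 73.4% core motif shares. Shared sites had 3040 to 7167.5 bp and 33.5% to 44.1% promoter. HIF-2α-only sites had 20669 to 27108.5 bp, 10.4% to 16.8% promoter, 55.0% to 63.2% core motif and 17.6% to 25.2% AP-1 shares.

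With the replicate number as a block, the A549 differences kept their values, with p = 0.5 in the exact permutation test (p = 1 for width), the smallest it allows. The difference in peak number against the other lines stayed at -0.87 with p = 0.0078 (exact permutation), and over all its other alternatives p ran from 0.00154 to 0.00926. Deviations of same-numbered A549 libraries over shared sites had a Pearson r of 0.154, and 2 pairs do not show a pairing. Unknown read depth limits every count of sites, and a missing peak does not show missing binding.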
